A study of Mus musculus with 3 samples.

Results

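The genes described here are 5 transcription regulators, the GATA zinc finger factors Gata1, Gata2 and Gata3 and the FOG partners Zfpm1 and Zfpm2, by the CUT&Tag signal of Flag-tagged Bcl11a around them. Bcl11a is a zinc finger repressor, and CUT&Tag uses an antibody to bring a transposase to a protein on chromatin, so that the DNA next to it is cut out and sequenced. All 3 libraries belong to a single group: LSK cells (lineage-negative, Sca-1-positive, Kit-positive) sorted from the bone marrow of mice that carry a 3xFlag tag at the N-terminus of Bcl11a according to the series design, although the genotype field of each sample reads wildtype. Age, sex and the number of animals are not given in the sources used here, and the SDs measure only the spread between these libraries, which may be technical. Library 1 listed 38731 peaks on the autosomes, X and Y, library 2 36459 and library 3 43462. The lists imply a genome-wide background of 1.07, 1.41 and 1.95 fragments per base. As no untagged library was analysed here, signal of the tagged protein could not be told apart from open chromatin cut without it.

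Peaks of different libraries that overlapped by at least 1 bp were joined into regions, and those that all 3 libraries shared are named reproducible. A region belonged to a gene when its summit lay inside the gene or when the nearest outer end of any protein-coding gene, within 100 kb, was an end of that gene. By this rule the 5 genes, of 21887 protein-coding genes in all, held 21 of the 22987 reproducible regions. The windows of 100 kb around the genes held 47 reproducible regions, and the other regions in them lay nearer to a neighbouring gene. Counting regions of 1 or 2 libraries too, 36 regions belonged to the 5 genes, and 58.3% of these were reproducible, where 37.8% of all 60816 joined regions were. Libraries 1, 2 and 3 gave 27, 30 and 30 peaks to them.

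GATA factors bind DNA through a pair of zinc fingers that recognise the letters GATA. FOG proteins, encoded by Zfpm1 and Zfpm2, do not read a DNA site of their own in this setting but bind the amino-terminal finger of a GATA factor and bring the NuRD corepressor complex to it. Gata2 is needed to maintain blood stem and progenitor cells, Gata1 with Zfpm1 replaces it when red cells and platelet precursors form, Gata3 directs T cells and type 2 innate lymphoid cells, and Zfpm2 is best known from heart and gonad, where it works with Gata4. BCL11A has been found in complexes with GATA1, FOG1 and NuRD in red cell precursors, which is why these genes are of interest beside it.

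The stretches before the transcript starts show the sequence at the starts of Gata2, Zfpm1, Gata3 and Gata1. They are the 250 bases before each start that the RefSeq promoter table of GRCm38.p6, the assembly of mm10, lists for these genes. Zfpm2 was not matched in it. They lie at chr6:88193641-88193890 (plus strand) for the distal start of Gata2, chr6:88198414-88198663 (plus strand) for its proximal start, chr8:122281891-122282140 (plus strand) for Zfpm1, chr2:9878601-9878850 (minus strand) for Gata3 and chrX:7967911-7968160 (minus strand) for Gata1. Capitals mark TGNCCA, the letters reported for BCL11A, and AGATAA or TGATAA, the GATA letters, on either strand.
Gata2 distal start: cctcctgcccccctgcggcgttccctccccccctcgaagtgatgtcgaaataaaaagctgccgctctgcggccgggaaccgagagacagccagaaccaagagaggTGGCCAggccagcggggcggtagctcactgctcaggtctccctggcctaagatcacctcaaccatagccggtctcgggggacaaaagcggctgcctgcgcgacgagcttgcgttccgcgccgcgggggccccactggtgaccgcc
Gata2 proximal start: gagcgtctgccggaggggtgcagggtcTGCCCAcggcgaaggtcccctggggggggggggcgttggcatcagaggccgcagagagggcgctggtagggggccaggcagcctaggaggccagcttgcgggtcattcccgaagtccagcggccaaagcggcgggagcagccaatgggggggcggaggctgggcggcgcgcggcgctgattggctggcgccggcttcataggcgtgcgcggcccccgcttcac
Zfpm1 start: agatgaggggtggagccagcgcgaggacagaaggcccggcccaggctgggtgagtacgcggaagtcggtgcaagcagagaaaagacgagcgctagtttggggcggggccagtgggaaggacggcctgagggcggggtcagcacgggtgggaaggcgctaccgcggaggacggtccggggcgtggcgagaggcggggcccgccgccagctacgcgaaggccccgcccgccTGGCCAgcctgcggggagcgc
Gata3 start: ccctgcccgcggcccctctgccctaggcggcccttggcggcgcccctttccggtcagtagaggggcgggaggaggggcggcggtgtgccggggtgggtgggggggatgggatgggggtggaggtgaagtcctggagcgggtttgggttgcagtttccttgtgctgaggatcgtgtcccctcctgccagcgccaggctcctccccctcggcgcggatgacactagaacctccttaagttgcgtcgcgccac
Gata1 start: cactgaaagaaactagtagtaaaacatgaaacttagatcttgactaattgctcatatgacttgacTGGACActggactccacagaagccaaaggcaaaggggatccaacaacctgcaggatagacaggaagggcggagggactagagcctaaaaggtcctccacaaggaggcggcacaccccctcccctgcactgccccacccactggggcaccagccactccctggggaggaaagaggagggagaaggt

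None of these 5 stretches held AGATAA or TGATAA, which 14.6% of the 21263 such windows of protein-coding genes did. TGNCCA occurred once before each start of Gata2, Zfpm1 and Gata1 and not before that of Gata3, and 40.5% of all windows held it. At Zfpm1 it began 21 bases before the start. The reproducible region there had its summit 375 bp before the start and ended 71 bp short of it, so these letters lay outside the region. At Gata2 the match began 145 bases before the distal start and 223 before the proximal one. Both lay inside the reproducible region that covers the start. TGACCA, a form included in TGNCCA, was in none of the 5, and in 10.5% of all windows. CACCC, bound by Krüppel-like factors, had 3 matches before Zfpm1 and before Gata3, 2 before Gata1, 1 before the proximal start of Gata2 and 0 before its distal start (54.2% of all windows held it). CANNTG, the letters of the SCL partner of GATA factors, was found before Gata1 only, with 1 match, against 62.8% of all windows. The stretches differed more in composition. The 4 windows of Gata2, Gata3 and Zfpm1 had 67.2% to 74% G and C and 19 to 28 CpG pairs, and that of Gata1 had 54% and 2 (medians over all windows 55.6% and 10). These are matches of letters on either strand in short windows and say nothing about binding.

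The genes differed widely in how many regions they held. Zfpm1 had 11 reproducible regions, Gata2 5, Gata3 4, Zfpm2 1 and Gata1 0. Of all protein-coding genes, 55.8% had at least 1 region by the same rule, 6.38% at least 4, 3.75% at least 5 and 0.311% at least 11. The count of Zfpm1 was passed by 40 genes in the genome. Among 2868 genes of 40 to 80 kb, the size class of Zfpm1 (56007 bp), 0.279% had 11 or more. With only the 10000 peaks of each library with the highest −log10 q, Zfpm1 had 4 regions, Gata3 2, Gata2 1 and Zfpm2 0.

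**Figure D1:**
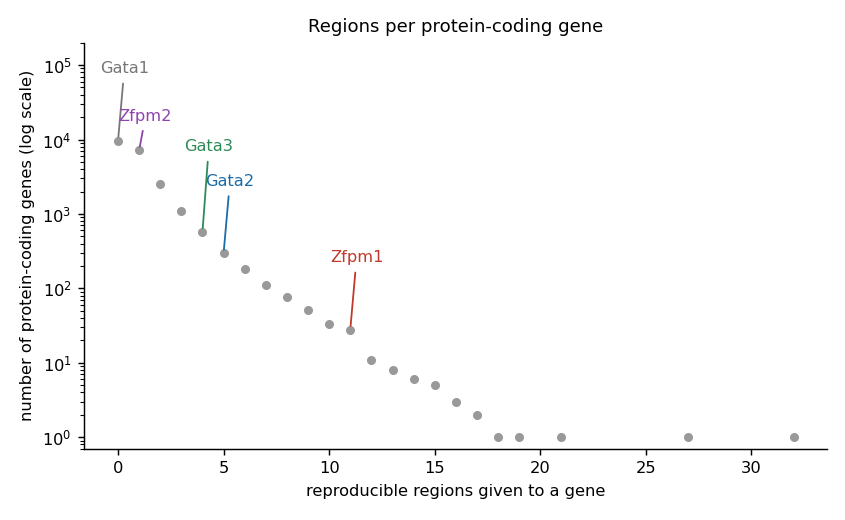
Number of protein-coding genes (log scale) against the number of reproducible regions given to a gene, with the 5 GATA and FOG genes marked at their own counts. Zfpm1 with 11 regions lies far along the tail, Gata2 with 5 and Gata3 with 4 lie above most genes, and Zfpm2 with 1 and Gata1 with 0 lie where most genes are.

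**Figure D2:**
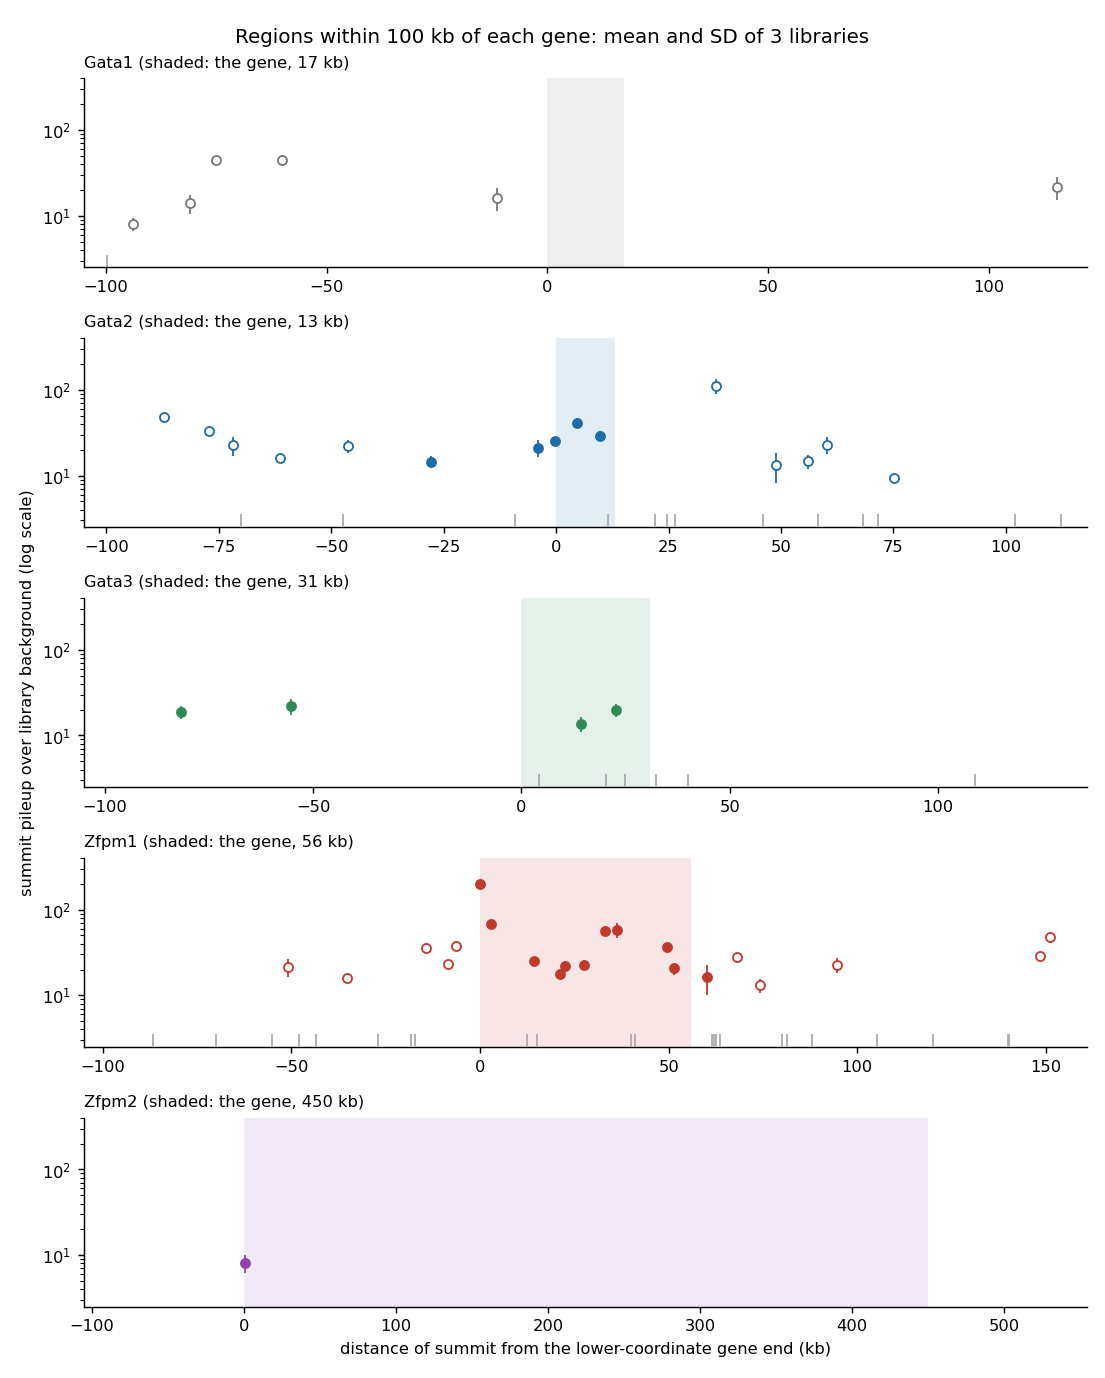
Summit pileup over the library background (log scale, mean and SD of 3 libraries) against the distance of the summit from the lower-coordinate end of each gene in kb, within 100 kb of the gene. Filled points are reproducible regions given to the gene, open points those nearer to another protein-coding gene, grey ticks at the bottom regions of 1 or 2 libraries, and the shaded band is the gene. Points crowd through Zfpm1, with 9 inside the gene, and lie on both sides of Gata2, with 2 inside it. None lies inside Gata1.

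An annotated outer end had a reproducible region within 1 kb in 3 of the 5 genes, Gata2, Zfpm1 and Zfpm2, each at the lower-coordinate end, where 45.2% of protein-coding genes had one. For Gata1 and Gata3 the outer end is not the start of the transcript in the promoter table, which lies 8650 and 9353 bp from the nearest outer end. Counted at listed starts instead, Gata2, Gata3 and Zfpm1 had a region within 1 kb (46.9% of 17492 genes with a listed start did), and Gata1 did not.

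Gata2 (chromosome 6, 88193891 to 88207032, plus strand, mm10) carried regions over both of its listed starts. The proximal start, at 88198664, was covered by the strongest, by pileup, of the 5 regions of the gene (88198167 to 88199011). Its summit pileup, the number of fragments stacked at the highest base, was 44, 67 and 70 in libraries 1, 2 and 3. Over each library's background this was 41.2, 47.6 and 36.0 times, a mean of 41.6 ± 5.84 (SD, n = 3), above 86.5% of all reproducible regions in the average library. Its summit lay 23 bp before the start. The fold enrichment that the authors' caller gave, pileup over the local background around the peak, was 4.96, 4.47 and 3.67, or 4.37 ± 0.65 (SD, n = 3). By that measure the region was above only 17.2% of all reproducible regions in the average library.

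The distal start of Gata2, at 88193891, was covered by a weaker region (88193307 to 88194517) with pileups of 27, 40 and 45 fragments and a fold enrichment of 3.31 ± 0.35 (SD, n = 3). In each library it was below the region at the proximal start, 25.3, 28.4 and 23.1 against 41.2, 47.6 and 36.0 times the library background, so that the values of the libraries did not overlap. By fold enrichment the distal region was above only 3.22% of all reproducible regions in the average library. The distal start is known as the one used in blood stem and progenitor cells, and the proximal start as the more general one.

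Several Gata2 enhancers are named by their distance in kb from the start, taken here as the distal one, and 3 of the 5 looked up lay under a region of all libraries. The window held 15 reproducible regions, and how often other positions in it lie under one was not counted. The +9.5 element, an enhancer inside the gene that blood stem cells need to emerge, fell in the region 88203104 to 88203788, with pileups of 32, 46 and 48 fragments and a fold enrichment of 3.95 ± 0.62 (SD, n = 3). The summits of the libraries in it lay up to 512 bp apart. The −3.9 element fell in the region 88189646 to 88190117, with 18, 37 and 40 fragments and 3.52 ± 0.72 (SD, n = 3), and library 1 was the lowest on both measures. The −77 element, an enhancer of progenitor cells, fell in the region 88116485 to 88117503, whose summit was 77.1 kb before the distal start. It had 40, 46 and 58 fragments and a fold enrichment of 6.24 ± 0.49 (SD, n = 3), and by distance it belonged to Rpn1, 11449 bp away. The nearest region ended or began 974 bp from the −2.8 position and 1216 bp from the −1.8 position, so neither was within 500 bp of one.

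**Figure D3:**
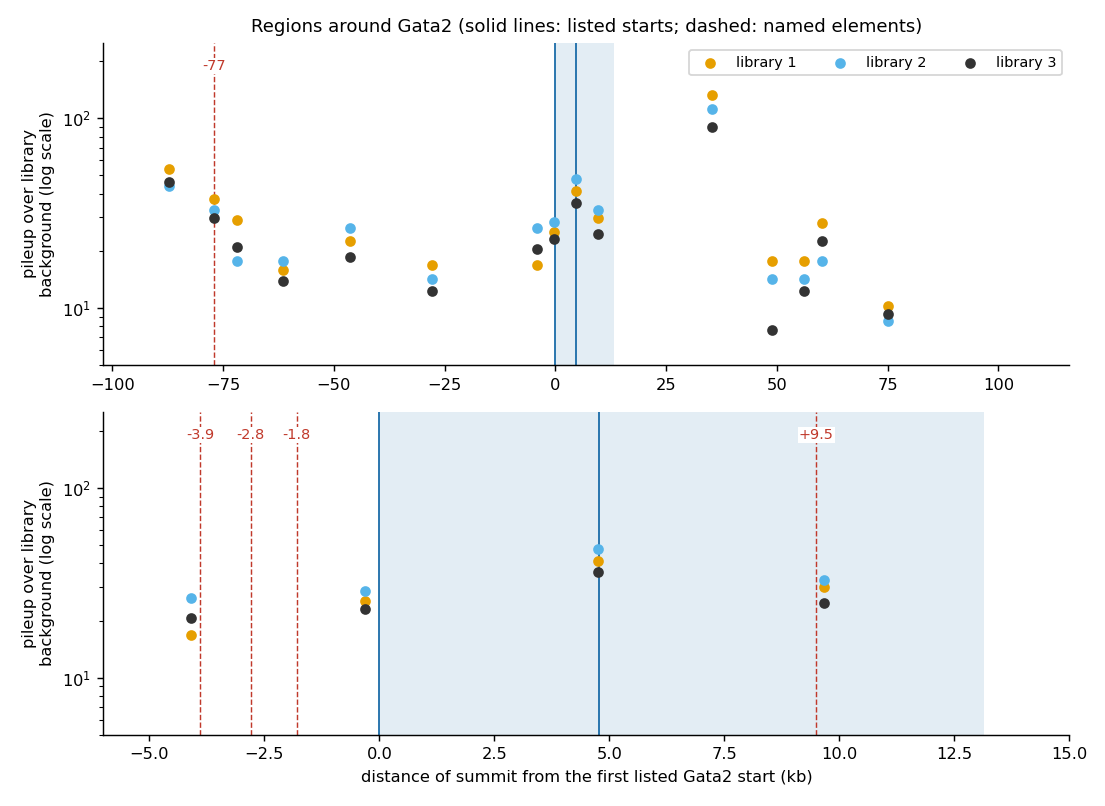
Summit pileup over the library background (log scale) of each library at the reproducible regions around Gata2, against the distance of the summit from the distal start in kb, for the whole window above and for the gene below. The shaded band is the gene, solid lines are its listed starts and dashed lines the positions of named elements; regions lie at both starts and at the −77, −3.9 and +9.5 positions, and the highest values are those of the region 35.5 kb after the distal start.

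The remaining region of Gata2 lay 27798 bp before the gene (88165927 to 88166360), with 18, 20 and 24 fragments and a fold enrichment of 5.74 ± 0.58 (SD, n = 3), the highest mean fold among the 5, while no library had a lower pileup at the other 4. The strongest region of the whole window by pileup was not given to Gata2. It lay 22312 bp beyond the higher-coordinate end (88228615 to 88229811), nearest to Dnajb8, a chaperone gene, with 141, 158 and 175 fragments and 111 ± 21.1 times the library background (SD, n = 3). That value exceeded the one at the proximal start of Gata2 in each library. Of the 10 reproducible regions of the window nearer to another gene, 5 were nearest to Rpn1, 4 to Eefsec and 1 to Dnajb8.

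Gata1 (chromosome X, 7959260 to 7976663, minus strand) had no peak of any library inside it, and no region was given to it. The stretch free of peaks ran from 7948313 to 8074215, 126 kb that hold Gata1 and Glod5 whole. It includes the positions named HS−25, HS−3.5 and HS+3.5 after their distance in kb from the Gata1 start, which are known as the hypersensitive sites that drive Gata1 in blood cells. The nearest region lay at the end of Hdac6, a deacetylase gene (7947566 to 7948312), with 20, 27 and 21 fragments and a fold enrichment of 8.42 ± 1.92 (SD, n = 3). Regions farther off lay at the ends of Slc35a2 and Pqbp1, with summits 75130 and 60095 bp from Gata1. Their fold enrichment of 13.9 ± 1.27 and 12.5 ± 1.59 (SD, n = 3) was above that of every region of the 5 genes. The other reproducible regions of the window, nearest to Suv39h1, Pim2 and Otud5, had 10.3 ± 0.98, 5.64 ± 1.18 and 4.99 ± 0.24 (SD, n = 3). Over chromosome X, 18.5% of protein-coding genes had an occupied end, against 47% on autosomes, and 20.2% of those with a listed start had a region within 1 kb of it. The weakest peak of each list had a pileup of 6, 7 and 8 fragments, so signal below that was not detectable in libraries 1, 2 and 3.

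Gata3 (chromosome 2, 9857078 to 9887953, minus strand) had its regions of highest fold enrichment outside the gene. Beyond its lower-coordinate end, which is the side after the finish of transcription, lay a region at a distance of 55337 bp (9801444 to 9802036) and another at 81601 bp (9775218 to 9776289), the given region nearest to the limit of 100 kb. The closer one had pileups of 29, 28 and 37 fragments and a fold enrichment of 9.98, 8.47 and 7.53, or 8.66 ± 1.24 (SD, n = 3). The farther one had 24, 26 and 31 fragments and 9.28, 9.32 and 7.49, or 8.70 ± 1.05 (SD, n = 3), so the pair differed by less than their spread. The summits of the closer one fell within 29 bp of each other, while in the farther one library 3 had its summit 680 bp from that of library 1.

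Inside Gata3, regions of lower fold enrichment lay on either side of the listed start at 9878600. The one before it (9879379 to 9879931) began 779 bp from the start and had 24, 29 and 31 fragments and a mean fold of 4.81 ± 0.64 (SD, n = 3). The one 7308 bp after it (9871048 to 9871896) had 12, 23 and 26 fragments and 5.03 ± 0.62 (SD, n = 3). In each library the fold enrichment of both was below that of the pair outside the gene, but the pileup of the one before the start was not below that of the farther outside region in any library. The start itself was not covered in any library, although 2 libraries had a peak at 9877371 to 9877598, with pileups of 16 in library 1 and 26 in library 3.

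Zfpm1 (chromosome 8, 122281856 to 122337862, plus strand), the FOG gene of blood cells, carried the strongest region of the 5 genes by pileup. This region (122280830 to 122282070) lay over the lower-coordinate end, with its summit 375 bp before the listed start at 122282141, and ended 71 bp short of that start. Its pileups were 198, 252 and 454 fragments, which is 185, 179 and 233 times the library background, or 199 ± 29.6 (SD, n = 3), and it ranked first of the 21 regions in every library. It stood above 99.4% of all reproducible regions in the average library. Its fold enrichment of 8.37, 7.41 and 9.70, or 8.49 ± 1.15 (SD, n = 3), was above 75.1% of them.

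The rest of the Zfpm1 regions ran through the gene, with 9 summits inside it and 1 beyond its far end. Close after the start, a wide region (122283678 to 122285034) had 76, 94 and 130 fragments, 68.3 ± 2.52 times the library background, while its fold enrichment of 2.91 ± 0.28 (SD, n = 3) was the lowest of the 21. A pair of regions farther in came next in pileup. The region 33235 bp into the gene (122314737 to 122315423) had 68, 80 and 97 fragments and a fold enrichment of 5.48 ± 0.72, and the one 36430 bp in (122318003 to 122318736) had 62, 99 and 92 and 5.18 ± 0.77 (SD, n = 3). In the latter the summits of the 3 libraries fell within 7 bp. The other 7 regions had mean fold enrichments of 3.23 to 5.90, with pileups of 21 to 41 in library 1, 17 to 53 in library 2 and 26 to 67 in library 3. The strongest of these by fold, 49542 bp in (122330652 to 122331808), had 41, 53 and 67 fragments. The region 4076 bp beyond the far end (122341438 to 122342189) varied most between libraries, with a fold enrichment of 5.07 in library 1 against 2.74 and 2.88 in libraries 2 and 3.

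Regions went on upstream of Zfpm1. Of the 10 reproducible regions of its window that were nearer to another gene, 5 were nearest to Zfp469, a zinc finger gene, 2 each to Trhr2, a hormone receptor gene, and to Cyba, a subunit of the phagocyte oxidase, and 1 to Zc3h18. The region 6482 bp before Zfpm1 (122274769 to 122275765) had 43, 49 and 74 fragments and the one 14328 bp before it (122266989 to 122267747) 43, 43 and 71. Both lay above most of the Zfpm1 regions in pileup. The region at the end of Cyba (122432197 to 122433624) had 43, 71 and 104 fragments and a fold enrichment of 6.07 ± 0.56 (SD, n = 3).

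Zfpm2 (chromosome 15, 40655042 to 41104592), the other FOG gene, had a single region in 450 kb of gene and the 100 kb on each side. It lay just inside the lower-coordinate end (40655740 to 40656294), with its edge 698 bp from the end. The pileups were 11, 9 and 15 fragments and the fold enrichment 5.80, 4.15 and 5.43, or 5.13 ± 0.86 (SD, n = 3). This was the weakest of the 21 regions by pileup in every library, at 8.14 ± 1.99 times the library background (SD, n = 3). The region was lost when only peaks with −log10 q of at least 5 were kept. The rest of the gene, 448 kb, had no peak of any library, and the next peak on that side was 791 kb from the region. Among 557 protein-coding genes of 300 kb or more, 60.9% had at least 1 reproducible region and 63.9% had at most 1.

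**Figure D4:**
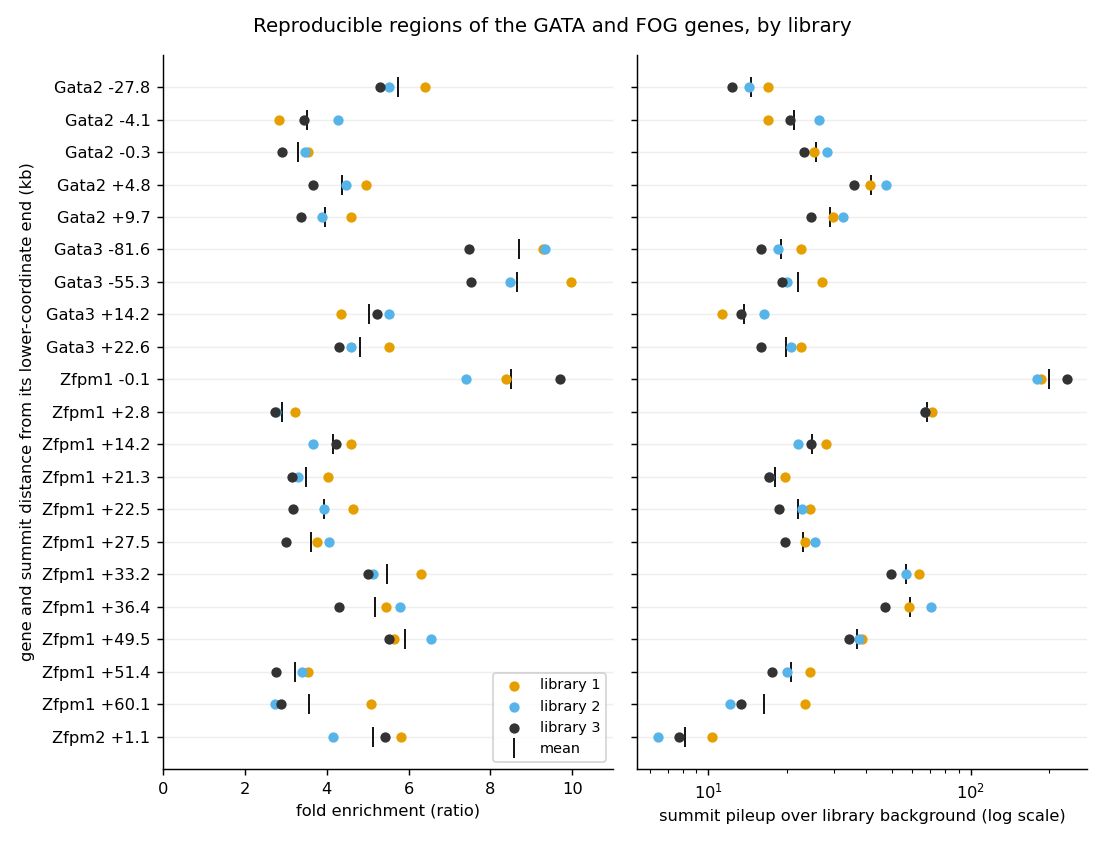
Fold enrichment (left) and summit pileup over the library background (right, log scale) of the 21 reproducible regions in each of the 3 libraries, with the mean as a black bar; each row names the gene and the distance of the summit from its lower-coordinate end in kb. The Gata3 regions outside the gene and the region at the Zfpm1 start lead by fold enrichment, whereas by pileup the Zfpm1 start stands alone near 199.

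The order of the 21 regions depended on the measure. By mean fold enrichment, the Gata3 regions at 81601 and 55337 bp came first and the Zfpm1 start next, and their values (8.70, 8.66 and 8.49) differed by less than the spread between libraries. By pileup over the library background the Zfpm1 start came first, and the same Gata3 regions ranked 16 and 11. Against all reproducible regions, 3 of the 21 lay above the middle by fold enrichment and 17 by pileup, with median percentiles of 17.2 and 61.6.

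Fold enrichment divides the pileup by a local background, and this background, as solved from the lists, was high at Zfpm1 and Gata2. Averaged over libraries it was 22.8 and 23.1 times the library background at the first regions of Zfpm1, and 4.04 to 10.7 times at the others of that gene. It was 5.52 to 9.03 times at the 4 Gata2 regions in or near the gene and 1.92 times at the one farther off. At Gata3 it was 1.54 to 3.51 times, and at Zfpm2 it was 1, the library background itself. The median over the 21 regions was 5.52, and that over all reproducible regions 2.13. What part the local background had in the order of the regions was not tested further.

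**Figure D5:**
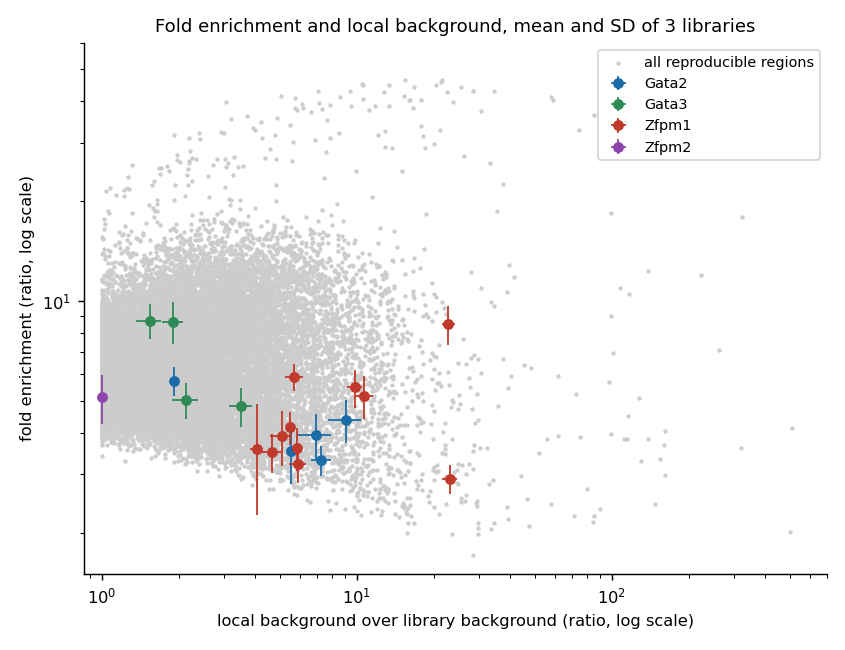
Fold enrichment against the local background divided by the library background (both log scales), each as the mean of 3 libraries; coloured points are the regions of Gata2, Gata3, Zfpm1 and Zfpm2 with SD bars, grey points all 22987 reproducible regions. The Zfpm1 and most Gata2 points lie to the right, at 4.04 to 23.1 times the library background, and low in fold enrichment except at the Zfpm1 start.

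The libraries placed the summits of these regions about as closely as elsewhere. The distance between the outermost of the 3 summits had a median of 144 bp over the 21 regions and 128 bp over all reproducible regions, and it was at most 100 bp in 9 of the 21 (42.9%) and in 39.9% of all. Over the 21 regions, Spearman's rho of pileup over background between libraries was 0.86 to 0.96, against 0.87 to 0.89 over all reproducible regions. For fold enrichment it was 0.72 to 0.91, against 0.76 to 0.80 over all. These are descriptions across regions, which share libraries and loci and are not independent.

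Genes that work with the GATA factors were read in the same way. In the list of GATA complex partners and related stem cell factors, 12 of 15 had an occupied end (45.2% of all protein-coding genes) and the 15 had 75 regions, a mean of 5 per gene against 1.08 over all. Ssbp2, which encodes a partner of Ldb1, had a fold enrichment of 9.99 ± 2.05, Smarca4, the SWI/SNF motor, 9.74 ± 2.05 and the E protein gene Tcf3 12.7 ± 2.06 (SD, n = 3). Fli1, Ldb1 and Lmo2 had no peak of any library at an end (40.8% of all genes had none), yet 7, 3 and 4 regions were given to them. An outer end need not be a transcript start. Of the 12 genes of this list with a listed start, 12 had a region at it, where 46.9% of all such genes did. All 13 NuRD subunit genes had an occupied end, with 28 regions, 2.15 per gene. Gatad2a, Rbbp4, which encodes a histone chaperone of the complex, at 11.8 ± 1.52 and Hdac2 led by fold enrichment at an end. The region at the end of Rbbp4 lay nearer to another gene, so Rbbp4 was given 0 of the 28. Of 12 other genes with a GATA-type zinc finger, 8 were occupied, 5 of them NuRD subunits already counted, and Gatad1 had 8.58 ± 1.57 (SD, n = 3). Gata6 was also occupied, at 4.39 ± 1.08 (SD, n = 3), whereas Gata4, Gata5 and Zglp1 had no peak at an end, like Gata1.

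Genes known as GATA targets are set beside the 45.2% of all protein-coding genes with an occupied end and their mean of 1.08 regions. For GATA2, 10 of 15 (66.7%) stem cell, mast cell and basophil targets had an occupied end and the 15 had 47 regions, 3.13 per gene. Lyl1, a partner of GATA2 on DNA, Hdac11 and the stem cell surface gene Cd34 led, with Hdac11 at 8.66 ± 0.68 and Cd34 at 7.69 ± 0.72 (SD, n = 3), while Angpt1, the mast cell protease gene Cpa3 and the IgE receptor gene Fcer1a had no peak at an end. For GATA1, 8 of 19 red cell and platelet targets (42.1%) were occupied, with 20 regions, 1.05 per gene, both near the values over all genes. Nfe2, Tfrc (the transferrin receptor gene) at 11.5 ± 1.48 and Itga2b led, and Alas2, Bcl2l1 and Ermap had no peak at an end, although 6 regions were given to Bcl2l1. For GATA3, 1 of 15 targets in T and innate lymphoid cells (6.67%) was occupied, Zbtb7b at 7.56 ± 1.03 (SD, n = 3), and Bcl11b, Ccr8 and Cd4 had no peak at an end. The 15 nevertheless had 18 regions, 1.2 per gene, held by 8 of them, which is near the mean over all genes. With a window of 3 kb, which 50.8% of all genes met, the counts were 10 for GATA2, 12 for GATA1 and 4 for GATA3, and with regions of at least 2 libraries that for GATA3 was 3. Counted at listed starts instead, 9 of 13 GATA2, 7 of 15 GATA1 and 2 of 12 GATA3 targets were occupied, against 46.9% of all genes with one. The lists share genes, and no difference between them was tested.

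Marker genes of the sorted cells and of other blood cells showed the following at their ends. Of 12 LSK markers 8 (66.7%) were occupied, against 45.2% of all protein-coding genes, Kit and Cd34 among them. Ly6a, which encodes Sca-1, and Hlf were not, though at least 1 library had a peak there, and Cd48 and Slamf1 had none. Of other cells, 3 of 12 red cell markers (25%), 3 of 8 megakaryocyte markers (37.5%), 0 of 8 mast cell and basophil markers, 1 of 8 T cell markers (12.5%), 2 of 8 B cell markers (25%) and 2 of 9 neutrophil and monocyte markers (22.2%) were occupied. The globin genes Hbb-bs, Hbb-bt, Hba-a1 and Hba-a2 had no peak of any library at an end. An occupied end is not a level of expression, and what part other cells in the sort had in any value was not tested.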

How the data were processed

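Each of the 3 libraries has its own peak list. The submitters' processing notes name Bowtie2, SAMtools, MACS2 and the build mm10, with no versions. Duplicate removal and the use of a control are not given in the sources. For each peak the deposited lists give a fold enrichment (a ratio), −log10 p, −log10 q, a summit and a score, which was not used. The lowest −log10 q was 1.30 to 1.31.

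Pileup and local background were solved from fold enrichment, as (pileup + 1) / (background + 1), with −log10 p read as the tail of a Poisson distribution; 100% of pileups were whole to within 0.05 fragments. Library background is the lowest value in a list. Peak coordinates are given from 1. Genes, starts and sequences came from RefSeq tables of GRCm38.p6, and outer gene ends were used because exons were not at hand. Analyses used Python 3.11.15, pandas 2.3.3 and scipy 1.17.1, and the functions were tested on simulated peaks.

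With a single group there was no test over samples, so members are set beside all genes or regions. All reproducible regions of the 5 genes are named or summarised. In windows the nearest other genes are named, and in each gene list the 3 strongest occupied genes and up to 3 without a peak. Members and lists were chosen with earlier results of these data known. Alternatives covered libraries, peak thresholds, overlap, windows, the nearest gene and the measure of strength. Listed starts were added after seeing the data.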

Additional observations from a re-analysis of the deposited data

How the results depend on the processing

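No paired analysis was possible because there is a single group. Without library 1, 2 or 3 in turn the 5 genes had 22 to 25 regions and 3 genes with an occupied end, against 21 and 3. Of all protein-coding genes, 46.2% to 48.8% then had an occupied end, against 45.2%. With regions of at least 2 libraries Gata3 had 7. With −log10 q of at least 5 Zfpm2 had 0. The 10000 strongest peaks left 7 regions, of which Zfpm1 had 4, Gata3 2, Gata2 1 and Zfpm2 0, and 1 gene, Zfpm1, with an occupied end. At that setting 20.6% of all protein-coding genes had an occupied end. With 50% reciprocal overlap Gata2 had 3, and with a window of 50 kb Gata3 had 2. Giving a gene every region of its window made 47 in all, 15 for Gata2, 21 for Zfpm1 and 6 for Gata1. Ranked by pileup instead of fold enrichment, the mean percentile of the strongest region was 99.4 against 75.1 for Zfpm1 and 7.72 against 31.2 for Zfpm2, the same region each time. For Gata2 it was 86.5 against 41.4 and for Gata3 61.4 against 77.9, where another region of the gene was then the strongest. By −log10 q it was 65.8, 69.4 and 99.1 for Gata2, Gata3 and Zfpm1, again of another region for Gata2 and Gata3. The GATA3 target list had 3 occupied genes, against 1, when 2 libraries sufficed, and 4 when ends were widened to 3 kb. The other 85 values kept within 1.5 times the count or 1 SD of the percentile. The occupied end of Zfpm2 was also lost with a 250 bp window, and that of Gata2 with 50% reciprocal overlap. Of all protein-coding genes, 40.7% and 38.2% had an occupied end at these settings. Library 1 had the lowest background, 1.07 fragments per base, and so the fewest fragments behind a fold enrichment.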

Other observations

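Beyond the limit of 100 kb, a single reproducible region had an end of one of the 5 genes as its nearest protein-coding end. It lay 263 kb beyond the lower-coordinate end of Gata3 (chromosome 2, 9593813 to 9594599), with pileups of 40, 52 and 53 fragments and a fold enrichment of 12.7, 12.6 and 10.4, or 11.9 ± 1.33 (SD, n = 3). This is above each of the 4 regions given to Gata3 in every library. Its summit is 285 kb after the listed Gata3 start, and its edge is 4001 bp from the position 280 kb after that start, the distance by which a T cell enhancer of Gata3 is known. Whether the region is that enhancer was not tested, and it was picked out after its values were seen.

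Regions missed by a library added to the crowding at Zfpm1. Of the 15 regions of the 5 genes with peaks of 1 or 2 libraries, 8 lay at Zfpm1, 5 at Gata3 and 2 at Gata2. At Zfpm1, 4 of them lay 5487 to 7550 bp beyond the far end, next to the reproducible region there. The region at 122321552 to 122321919 had pileups of 35 in library 2 and 48 in library 3, above those of several reproducible regions elsewhere, with a fold enrichment of 2.55 and 2.65. At Gata3, a region 1491 bp beyond the higher-coordinate end (9889082 to 9889783) had peaks of libraries 1 and 3 with 8 and 22 fragments, and Gata2 had one 9157 bp before the gene (88184456 to 88184961) with 17 fragments in each of libraries 2 and 3.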
